A study of Mus musculus with 4 samples.

Results

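Erythroid membrane, enzyme and transcription factor genes were followed in RNA sequencing libraries labelled as PMN-MDSCs, the polymorphonuclear kind of myeloid-derived suppressor cell, a neutrophil-like cell of animals with tumours. The set was chosen by name: 47 names were listed, and 44 of the 18751 distinct names in the deposited count table matched one. Sptb is the current name of the gene listed in the table as Spnb1, which was measured, and Icam4 and Ahsp were not analysed here. KO libraries, 2 in number, came from CD300ld knockout mice, and they were compared with 2 libraries of wild-type (WT) mice. CD300ld is a surface receptor found on myeloid cells. Both genotypes were C57BL/6 mice aged 8 weeks, and both had received B16-F10 cells, a mouse melanoma line, under the skin 15 days before the cells were taken with a magnetic enrichment kit for neutrophils. The labels do not state the organ, how the knockout was made, how many mice stood behind a library or whether red cells were lysed. No label ties a library to an animal of its own, so the p-values describe the spread of these libraries and that spread may be technical.

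Red cell precursors mature from proerythroblasts to reticulocytes under erythropoietin. GATA1, with partners such as FOG-1, TAL1 and LMO2, and KLF1 switch on genes for haemoglobin, for haem synthesis and for a membrane in which spectrin and actin are tied by ankyrin and protein complexes to band 3, the anion exchanger. Late in the process the cells leave the cell cycle, expel the nucleus and clear mitochondria and ribosomes. In mice with growing tumours erythropoiesis often extends to the spleen, beside the myeloid cells that expand there.

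The promoters of a few of these genes are shown because GATA1 and KLF1, themselves in the set, are known to act through short DNA motifs. Of the 44 genes, 30 had at least 1 promoter in the RefSeq table (GRCm38.p6), 43 promoters in all, and the 250 bases upstream of the start were searched on both strands. A motif of GATA factors, searched as AGATAA, occurred in 16.3% of the 43 promoters and in 9.99% of all 32851 promoters. The letters CCNCNCCC, a KLF1 motif, occurred in 60.5% and 45.9%, and CAGNTG, an E-box, in 48.8% and 44.8%. No AGATAA match overlapped a match of either other motif. The first 4 sequences below are those of the transcription factor Tal1 (chr4:115056176-115056425, plus strand), the erythropoietin receptor Epor (chr9:21963577-21963826, minus strand) and the blood group genes Rhd (chr4:134864286-134864535, plus strand) and Kel (chr6:41704326-41704575, minus strand), with capitals on AGATAA or its reverse complement. Between the match and the start lie 199 bases in Tal1, 48 in Epor, 37 in Rhd and 50 in Kel. The last sequence is that of Aqp1 (chr6:55336049-55336298, plus strand), the gene with the largest fold change of the set. It holds no AGATAA, and there the capitals mark CCNCNCCC. Another Tal1 promoter (chr4:115057561-115057810, plus strand), not shown, held no AGATAA and 4 matches of CCNCNCCC. The shown genes with an AGATAA match all rose in KO libraries, while Epb4.2, not shown, held a match and was not called. Of the 7 genes with an AGATAA match 6 rose in KO libraries, and of the 23 genes without one 10 rose. For CCNCNCCC 10 of 20 genes with a match and 6 of 10 without one rose, and for CAGNTG 10 of 16 with a match and 6 of 14 without one. These are descriptions of letters and were not tested. Other spellings of the GATA motif were not searched, so genes without an AGATAA match may hold them.
Tal1: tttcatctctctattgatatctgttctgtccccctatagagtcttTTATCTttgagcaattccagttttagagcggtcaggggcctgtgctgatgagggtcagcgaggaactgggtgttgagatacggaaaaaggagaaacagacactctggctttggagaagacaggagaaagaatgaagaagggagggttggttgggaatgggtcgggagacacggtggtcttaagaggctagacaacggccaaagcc
Epor: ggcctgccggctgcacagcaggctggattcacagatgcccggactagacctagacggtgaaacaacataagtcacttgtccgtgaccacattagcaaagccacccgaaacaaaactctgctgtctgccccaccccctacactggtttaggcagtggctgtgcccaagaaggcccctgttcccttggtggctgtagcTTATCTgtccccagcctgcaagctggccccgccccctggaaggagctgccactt
Rhd: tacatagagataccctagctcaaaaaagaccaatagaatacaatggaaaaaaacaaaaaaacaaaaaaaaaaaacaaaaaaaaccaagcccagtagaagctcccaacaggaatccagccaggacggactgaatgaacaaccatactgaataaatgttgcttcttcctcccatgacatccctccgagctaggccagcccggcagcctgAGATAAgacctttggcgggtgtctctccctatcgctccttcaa
Kel: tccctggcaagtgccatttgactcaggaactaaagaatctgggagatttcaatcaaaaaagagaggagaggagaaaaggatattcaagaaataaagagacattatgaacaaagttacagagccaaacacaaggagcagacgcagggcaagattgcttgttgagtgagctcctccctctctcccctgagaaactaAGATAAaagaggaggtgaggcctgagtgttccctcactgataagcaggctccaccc
Aqp1: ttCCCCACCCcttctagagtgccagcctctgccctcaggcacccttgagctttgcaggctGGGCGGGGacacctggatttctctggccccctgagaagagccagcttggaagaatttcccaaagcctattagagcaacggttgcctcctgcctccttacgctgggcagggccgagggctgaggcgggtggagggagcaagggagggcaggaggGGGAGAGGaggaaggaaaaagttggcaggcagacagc

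The KO libraries held 830931 and 835510 counts and the WT libraries 674599 and 920839. The gene knocked out, Cd300ld, was at 2 and 3 counts in KO, against 0 and 11 in WT, too few to check the genotype labels. The 15 markers of neutrophils, the labelled cell type, were detected in all 4 libraries. They took a smaller share of counts in KO (0.576% and 0.531%) than in WT (3.45% and 3.98%). That share was below the share of the 44 erythroid genes in both KO libraries (5.33% and 5.31%) and in WT library 1 (4.11%). In WT library 2 it was above that of the 44 genes (3.68%). The part of the lower neutrophil share in the results that follow was not tested.

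Of the erythroid genes 25 had more RNA in KO than in WT libraries, by moderate amounts, and 19 did not pass the test. Of the 44 genes, all of which passed the filter on low counts, edgeR's quasi-likelihood test called 25 higher and 0 lower in KO (Benjamini-Hochberg adjusted p below 0.05, over all 7685 genes tested). In the same fit 2.71% of all genes tested were higher and 3.27% lower. At an unadjusted p below 0.05 in edgeR there were 34 higher and 0 lower. At the adjusted threshold DESeq2 gave 21 higher and 0 lower, and limma-voom 28 higher and 0 lower. The share of all genes is given only for the adjusted edgeR calls, so these other counts have no background beside them. The folds of the 25 genes ran from 1.30 to 2.25, and 4 of them, Tal1, Epor, Car1 and Aqp1, reached 2-fold. The median log2 fold change was 0.60 for the 44 genes and 0.00 for all genes tested. Both KO libraries lay above both WT libraries for 40 of the 44 genes, and for 24.5% of all genes tested, while 4 genes overlapped (Mxi1, Epb4.1, Bpgm and Bnip3l). With KO library 1 left out 15 genes were higher, with KO library 2 left out 17, with WT library 1 left out 28, and with WT library 2 left out 21 were higher and 1, Bpgm, was lower. The share of all genes called with a library left out is not given here. Whether those counts follow calls over the whole table was therefore not compared. In a bulk sample, more erythroid cells and more RNA per cell cannot be told apart.

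**Figure D1:**
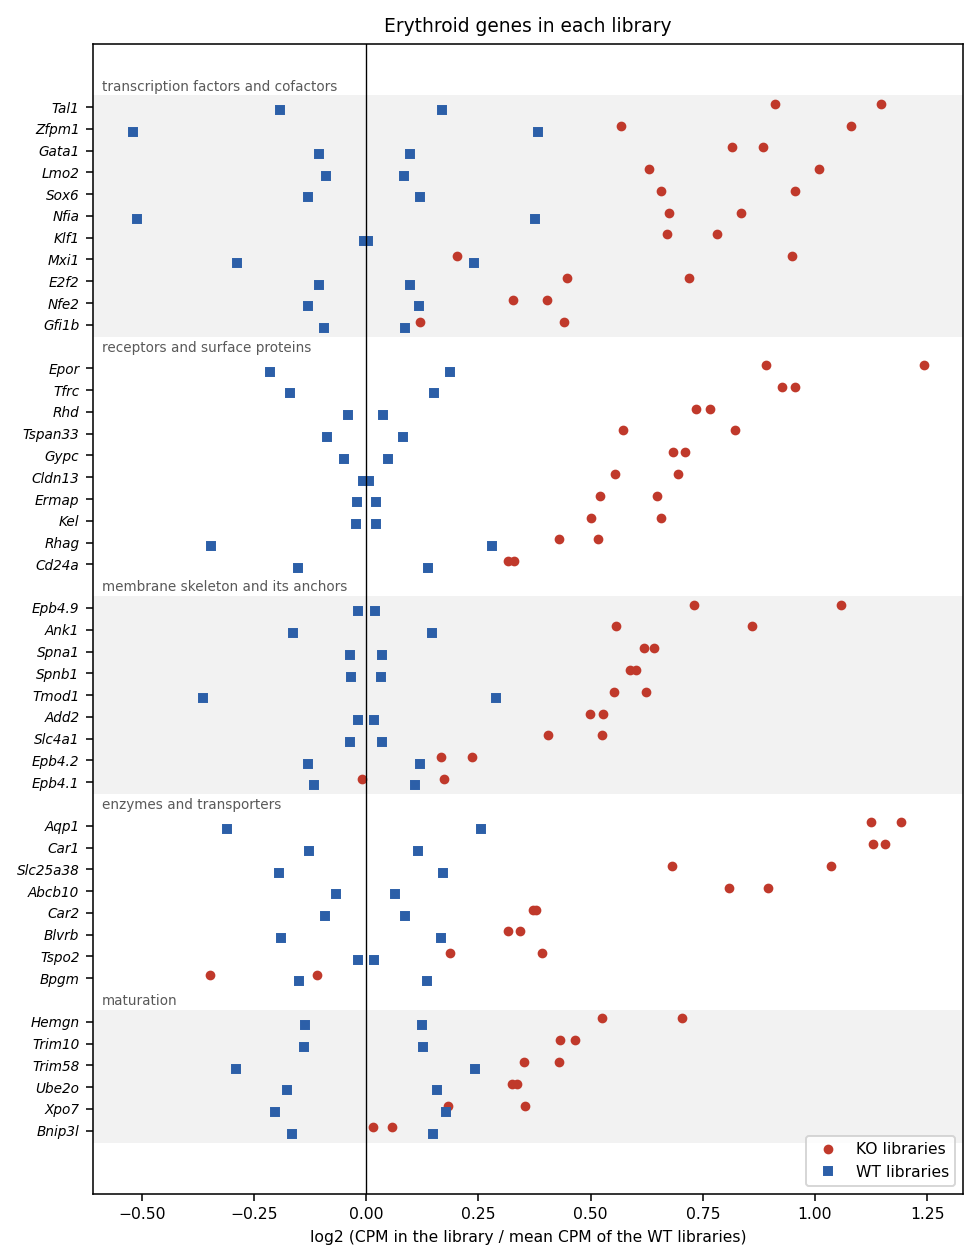
Each point is 1 library, plotted as the log2 ratio of its counts per 1000000 scaled library counts (CPM) to the mean CPM of the WT libraries, with KO as red circles and WT as blue squares and genes grouped by role and ordered by fold change. KO circles lie to the right of both WT squares for 40 of 44 genes, and Bpgm is the gene whose KO circles lean left.

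Together the 44 genes took 5.33% and 5.31% of counts in the KO libraries, against 4.11% and 3.68% in the WT libraries. The groups did not overlap, and WT libraries were further apart than KO libraries. The means were 5.32 ± 0.0160% in KO and 3.89 ± 0.306% in WT (SD, n = 2 each), a ratio of 1.37. An exact permutation test of 2 against 2 libraries cannot go below the two-sided p = 0.3333 found here. Band 3 (Slc4a1) and carbonic anhydrase 2 (Car2) made up 39.8% of these counts in KO and 40.5% in WT. Without them the share was 3.20 ± 0.00108% in KO and 2.32 ± 0.234% in WT. Mitochondrial genes took 11.1% and 10.6% of counts in KO, against 15.1% and 12.2% in WT, without overlap, and their part in the result was not tested. Across the 44 genes WT library 1 stood above WT library 2 by a median of 0.20 on the log2 CPM scale, while the KO libraries differed by a median of 0.03.

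The transcription factors and cofactors had the highest median log2 fold change of the roles, 0.79, with 6 of 11 genes higher. Gata1, the central factor of the erythroid lineage, had 283 and 270.4 CPM in KO, against 164 and 143 CPM in WT, a log2 fold change of 0.85 ± 0.18 (SE, adjusted p = 0.00733 in edgeR). Klf1, which drives adult β-globin and many membrane genes, had 779.6 and 722 CPM in KO and 455 and 452 CPM in WT (0.73 ± 0.14, adjusted p = 0.00345). Both genes stood clear of WT in each KO library and stayed past the threshold in all 11 alternatives. Tal1 had 188 and 159 CPM in KO and 95.2 and 74.2 CPM in WT (1.05 ± 0.22, adjusted p = 0.00845). Lmo2, the bridge between TAL1 and GATA1 in their complex, had 411 and 534 CPM in KO and 281 and 249 CPM in WT (0.84 ± 0.17, adjusted p = 0.00598). Again no KO library reached down to a WT library. Sox6, which helps to silence embryonic globin genes, had 204 and 251 CPM in KO and 118 and 141 CPM in WT (0.81 ± 0.20, adjusted p = 0.0196). E2f2, an E2F factor tied to cell cycle control in late erythroblasts, had 785 and 649 CPM in KO and 510.0 and 443 CPM in WT (0.59 ± 0.15, adjusted p = 0.0229).

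The other 5 factors did not pass the threshold. Gfi1b, a repressor needed for red cell and platelet formation, had 125 and 156 CPM in KO and 108 and 122 CPM in WT, barely apart, with a log2 fold change of 0.28 ± 0.22 (adjusted p = 0.543). Nfe2, which acts on the globin locus control region, had 0.37 ± 0.16 (adjusted p = 0.212). Zfpm1, encoding FOG-1, had 54.2 and 77.3 CPM in KO and 47.6 and 25.5 CPM in WT, and its 0.88 ± 0.36 (adjusted p = 0.190) came with wide spread in WT. It passed with WT library 1 left out (1.34, adjusted p = 0.0436). Nfia, known in human progenitors to favour the erythroid over the granulocytic fate, and Mxi1, an antagonist of MYC, had 6 to 21 counts per library and log2 fold changes of 0.79 ± 0.65 and 0.60 ± 0.56, which were not distinguishable from 0. A gene on the other strand shares exons with each of Nfia and Mxi1 in GENCODE M21, and with the strand setting not given their counts are uncertain. The calls of Tal1 and E2f2 ended without WT library 2 (adjusted p = 0.0564 and 0.0603), that of E2f2 also without KO library 1 (0.298), that of Lmo2 without KO library 2 (0.0831), and that of Sox6 without KO library 2 (0.156), without WT library 1 (0.0840) and with DESeq2 (0.0802).

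Among receptors and surface proteins 7 of 10 genes were higher, and the median log2 fold change was 0.66. Epor, whose signal keeps erythroid progenitors alive, had 198 and 252 CPM in KO and 121 and 92.0 CPM in WT (log2 fold change 1.09 ± 0.21, adjusted p = 0.00457). Tfrc, the transferrin receptor that brings in iron for haem, had 2213 and 2167 CPM in KO and 1267 and 1014 CPM in WT (0.94 ± 0.13, adjusted p = 0.000197). Each KO library of Tfrc lay far above the higher WT library. Rhd, the Rh antigen protein, had 1482 and 1449.8 CPM in KO and 848 and 895 CPM in WT (0.75 ± 0.12, adjusted p = 0.000917). Its partner in the Rh complex, Rhag, had 1157 and 1230.1 CPM in KO and 1043 and 676 CPM in WT. The WT libraries of Rhag were far apart, and it did not pass the threshold (0.48 ± 0.16, adjusted p = 0.107), but did with WT library 1 left out (0.80, adjusted p = 2.85e-06), with no filter (adjusted p = 0.0165) and in limma-voom (adjusted p = 0.0238).

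The glycophorin C gene Gypc, whose product anchors the membrane skeleton, had 567 and 557 CPM in KO and 358 and 335 CPM in WT (0.70 ± 0.15, adjusted p = 0.00706). Kel, the endopeptidase that carries the Kell antigens, had 992 and 889.7 CPM in KO and 619 and 639 CPM in WT (0.58 ± 0.13, adjusted p = 0.0121). Cldn13, a claudin found in rodents and expressed in mouse erythroblasts, and Ermap, the erythroid membrane protein that carries the Scianna antigens, had log2 fold changes of 0.63 ± 0.14 and 0.59 ± 0.14 (adjusted p = 0.00995 and 0.0146). Cldn13 had 779.6 and 707 CPM in KO and 484 and 479.7 CPM in WT, where the libraries lay close together. Ermap had 766 and 701 CPM in KO and 496 and 482 CPM in WT. Tspan33, a tetraspanin of erythroid progenitors, had 157 and 187 CPM in KO and 112 and 99.7 CPM in WT, just short of the threshold (0.71 ± 0.21, adjusted p = 0.0594). Cd24a, the heat stable antigen of erythroid, B lineage and neutrophil cells, had 0.32 ± 0.11 (adjusted p = 0.103) and passed without WT library 1 (adjusted p = 0.000105) and in limma-voom (adjusted p = 0.0148). Without KO library 1 the calls of Cldn13, Ermap and Kel ended (adjusted p = 0.129, 0.170 and 0.176), while Epor, Tfrc, Rhd and Gypc passed in all 11 alternatives.

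Of the 9 genes of the membrane skeleton and its anchors 5 were higher, and the median log2 fold change was 0.57. Slc4a1, encoding band 3, had 13258 and 12191 CPM in KO and 9434 and 8986 CPM in WT (0.47 ± 0.09, adjusted p = 0.00305). The α-spectrin gene Spna1 had 554 and 563 CPM in KO and 352 and 370.0 CPM in WT, and its β-spectrin partner Spnb1 had 732 and 738 CPM in KO and 498 and 475 CPM in WT. The spectrin chains, which pair in equal numbers in the skeleton, had log2 fold changes of 0.63 ± 0.14 and 0.60 ± 0.14 (adjusted p = 0.0131 and 0.0125). Ank1, the ankyrin that ties spectrin to band 3, had 312 and 385 CPM in KO and 235 and 189 CPM in WT (0.72 ± 0.18, adjusted p = 0.0210). Epb4.9, encoding the actin-bundling protein dematin, had 819.9 and 653 CPM in KO and 389 and 399 CPM in WT (0.90 ± 0.15, adjusted p = 0.00135). It had the largest fold change in this role and passed in all 11 alternatives.

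The other 4 genes of this role did not pass the threshold. Epb4.1, whose product strengthens the spectrin and actin junction, had 1354 and 1193 CPM in KO and 1294 and 1107 CPM in WT, with overlapping libraries and a log2 fold change of 0.09 ± 0.13 (adjusted p = 0.794). Epb4.2, whose product binds band 3 and ankyrin, had 962 and 917 CPM in KO and 888 and 747 CPM in WT (0.20 ± 0.13, adjusted p = 0.454). Add2, the β-adducin of the actin caps, had 484 and 494 CPM in KO and 338 and 347 CPM in WT. Its libraries were well separated but it stopped just short of the threshold (0.51 ± 0.15, adjusted p = 0.0514). It passed in limma-voom (adjusted p = 0.0278) and with haemoglobin and mitochondrial genes left out (adjusted p = 0.0491). Tmod1, which caps the actin ends, had 0.57 ± 0.23 (adjusted p = 0.188) and passed without WT library 2 (0.94, adjusted p = 0.0357). Genes on the other strand share exons with Spnb1, Ank1, Epb4.1, Tmod1 and Add2 in GENCODE M21, so a part of their counts may belong to those genes. The calls of Spna1 and Spnb1 ended without KO library 1 (adjusted p = 0.0698 and 0.0793) and without KO library 2 (0.0716 and 0.0723), that of Slc4a1 without KO library 1 (0.0945), and that of Ank1 without KO library 2 (0.185), without WT library 2 (0.116) and with DESeq2 (0.0587).

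**Figure D2:**
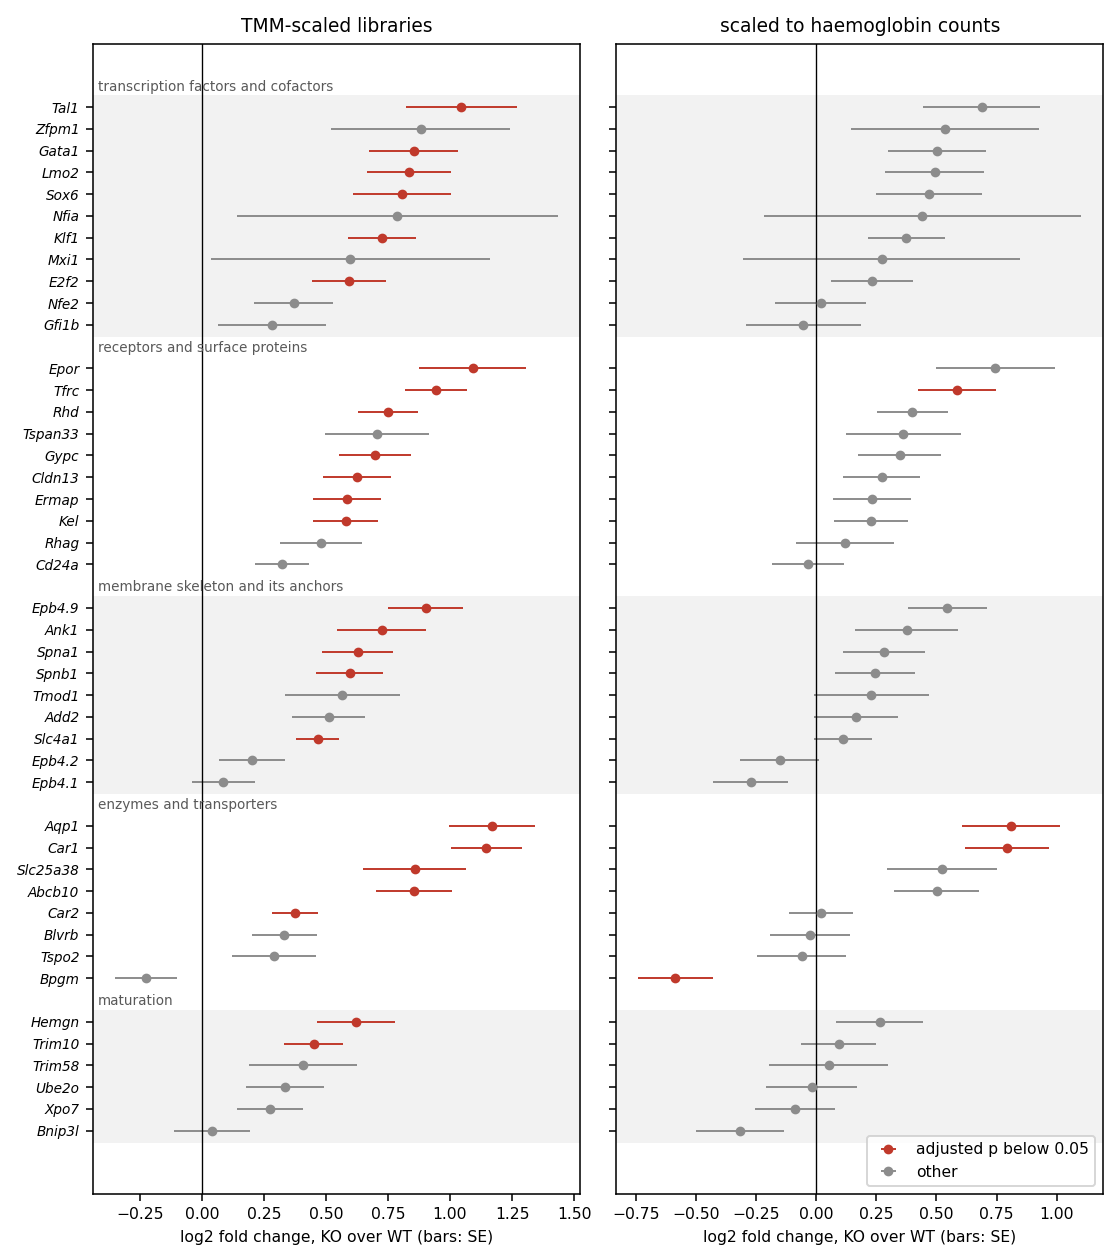
Log2 fold changes of KO over WT with SE bars (4 libraries), for TMM-scaled libraries on the left and for libraries scaled to their haemoglobin counts on the right, red where the adjusted p is below 0.05. On the left 25 genes are red and all right of 0, and on the right 3 are red right of 0 and 1, Bpgm, left of it.

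The enzymes and transporters spanned the widest range, from −0.22 for Bpgm to 1.17 for Aqp1, with 5 of 8 genes higher. Aqp1, the water channel of the red cell membrane, had 747 and 713 CPM in KO and 390.2 and 264 CPM in WT (1.17 ± 0.17, adjusted p = 0.000449). Car1, a carbonic anhydrase of erythroid cells, had 846 and 831 CPM in KO and 412 and 348 CPM in WT (1.15 ± 0.14, adjusted p = 0.000101). Its relative Car2, which carries out the same hydration of carbon dioxide, had 9019 and 9066 CPM in KO and 7399 and 6544 CPM in WT. Car2 had a log2 fold change of 0.38 ± 0.09 (adjusted p = 0.0203). The mitochondrial carriers of haem synthesis, Slc25a38, which imports glycine, and Abcb10, had 0.86 ± 0.21 and 0.85 ± 0.15 (adjusted p = 0.0173 and 0.00213). Abcb10 had 533 and 502 CPM in KO, against 299.6 and 274 CPM in WT, and Slc25a38 had 200.3 and 256 CPM in KO, against 109 and 141 CPM in WT.

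Bpgm, which makes the 2,3-bisphosphoglycerate that lowers the oxygen affinity of haemoglobin, was the one gene of the set with a negative value. It had 2194 and 1859 CPM in KO and 2602 and 2133 CPM in WT, so that the libraries overlapped (−0.22 ± 0.13, adjusted p = 0.371), and it passed the threshold as lower without WT library 2 (−0.37, adjusted p = 0.0185). Blvrb, the flavin and biliverdin reductase of red cells, had 1589 and 1561 CPM in KO and 1407 and 1099 CPM in WT (0.33 ± 0.13, adjusted p = 0.169). Tspo2, an erythroid relative of the translocator protein, had 306 and 266 CPM in KO and 230.4 and 236 CPM in WT (0.29 ± 0.17, adjusted p = 0.391). Neither passed, although for both genes each KO library lay above each WT library, and Blvrb did without WT library 1 (adjusted p = 0.00354). The call of Car2 ended without KO library 1 (adjusted p = 0.162), without KO library 2 (0.131) and with a filter of 1 CPM in 2 libraries (0.0700). That of Slc25a38 ended without KO library 2 (0.140), without WT library 1 (0.0813) and with DESeq2 (0.0616). Car1, Aqp1 and Abcb10 passed in all 11 alternatives.

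Genes of terminal maturation had the lowest median log2 fold change of the roles, 0.37, with 2 of 6 higher, and neither of these calls held without KO library 1. Hemgn, a nuclear protein of haematopoietic cells and a GATA1 target, had 544 and 480.5 CPM in KO and 364 and 304 CPM in WT (0.62 ± 0.16, adjusted p = 0.0236). Trim10, an erythroid TRIM protein, had 2076 and 2028 CPM in KO and 1641 and 1366 CPM in WT (0.45 ± 0.12, adjusted p = 0.0345). Trim58, a ubiquitin ligase that acts on dynein during enucleation, had 162 and 171 CPM in KO and 151 and 104 CPM in WT. It did not pass the threshold (0.41 ± 0.22, adjusted p = 0.340). Xpo7, a nuclear export receptor needed for chromatin condensation, had 0.27 ± 0.13 (adjusted p = 0.283) and passed without WT library 1 (adjusted p = 0.00589). Ube2o, which marks ribosomal proteins of reticulocytes for destruction, had 0.34 ± 0.16 (adjusted p = 0.261). Bnip3l, encoding the NIX receptor for the removal of mitochondria, had 479 and 465 CPM in KO and 510.0 and 409.9 CPM in WT, both KO values between the WT values (0.04 ± 0.15, adjusted p = 0.932). In GENCODE M21 Npm2 shares exons with Xpo7, a gene on the other strand does so with Abcb10, and near-identical copies of Cd24a exist, so their counts are uncertain. The call of Hemgn ended without KO library 1 (adjusted p = 0.198), without WT library 2 (0.118) and with DESeq2 (0.0523). That of Trim10 ended without KO library 1 (0.203), KO library 2 (0.116) or WT library 2 (0.1002) and with the filter of 1 CPM (0.0514). Of the 384 tested genes on chromosome 17, Trim10 was the 93rd nearest to H2-Ea-ps, Rhag the 128th and Tspo2 the 254th. H2-Ea-ps had 274 and 313 counts in KO, against 0 and 1 in WT. For genes of this chromosome, the knockout and another inherited difference between KO and WT mice cannot be told apart as sources of the difference. Inherited differences on other chromosomes were not examined, and the same limit applies to the genes there.

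The same 44 genes were also set against haemoglobin, the main RNA of late erythroid cells. Haemoglobin genes took 17.3% and 16.2% of counts in KO, against 12.5% and 13.7% in WT. For every 100 haemoglobin counts there were 30.8 and 32.9 counts of the 44 genes in KO and 32.9 and 26.8 in WT, so that the libraries overlapped. With libraries scaled to haemoglobin counts, edgeR called 3 of the 44 genes higher and 1 lower, against 0.677% of all genes tested higher and 7.20% lower. This scaling moved the median of all genes to −0.34, and the median of the 44 genes was 0.25. Per haemoglobin count Car1 had a log2 fold change of 0.79 ± 0.17 (adjusted p = 0.00995), Aqp1 0.81 ± 0.20 (0.0224), Tfrc 0.59 ± 0.16 (0.0351) and Bpgm −0.59 ± 0.15 (0.0276). Band 3 and carbonic anhydrase 2 had 0.11 ± 0.12 and 0.02 ± 0.13 and were not distinguished from haemoglobin. None of these 4 calls held without KO library 1 (smallest adjusted p = 0.234) or without KO library 2 (0.198), and without WT library 2 Aqp1 and Tfrc did not pass (0.129 and 0.131). Without WT library 1 Bpgm did not pass (0.129), and with the filter of 1 CPM neither Tfrc (0.0744) nor Bpgm (0.0624) did.

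Other genes of the red cell programme, 107 tested of 115 with a row, had 24 higher and 0 lower in edgeR (41 higher and 1 lower at an unadjusted p below 0.05, and 19 and 25 higher with 0 lower in DESeq2 and limma-voom). Only the adjusted edgeR calls can be set against a share of all genes, 2.71% higher and 3.27% lower. The median log2 fold change of these other genes was 0.32. Haem and iron genes held the most calls, 8 of 20 higher with a median of 0.42. Ppox, the protoporphyrinogen oxidase, had 0.92 ± 0.16, and the iron-sulphur glutaredoxin Glrx5 0.93 ± 0.17 (adjusted p = 0.00173 and 0.00240). Alad, the second enzyme of the haem pathway, stood far above the rest at 2.58 ± 0.12 (adjusted p = 5.54e-10). It had 2683 and 2651 CPM in KO and 453 and 439 CPM in WT. The source of this larger difference was not tested, and the limit on inherited differences applies to it. Of 19 tested partners and antagonists of the transcription factors 4 were higher, with a median of 0.46. Foxo3, a forkhead factor of erythroid maturation that was also on the maturation list, had 1176 and 902 CPM in KO and 505 and 472 CPM in WT (1.09 ± 0.15, adjusted p = 0.000227). E2f4, needed for fetal erythropoiesis in mice, had 1.01 ± 0.18, Tcf3, the E protein that pairs with TAL1, 1.21 ± 0.25, and Klf3, a repressor induced by KLF1, 0.86 ± 0.19 (adjusted p = 0.00217, 0.00661 and 0.0121). The call of Klf3 ended in DESeq2 (adjusted p = 0.0557) and without WT library 2 (0.0718).

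Maturation and clearance genes had 6 of 20 higher, and their median log2 fold change was 0.24. Ctse, the cathepsin E of erythrocytes, had 0.67 ± 0.12, the RNA-binding protein gene Rbm38 0.69 ± 0.13 and Ypel4 0.97 ± 0.19 (adjusted p = 0.00231, 0.00408 and 0.00515). Of 11 tested redox and energy enzymes 2 were higher, with a median of 0.32. Gpx1, a glutathione peroxidase, had 8429.6 and 7759 CPM in KO and 5188 and 4731 CPM in WT (0.71 ± 0.10, adjusted p = 0.000210), and Prdx2, the peroxiredoxin of red cells, had 0.51 ± 0.10 (adjusted p = 0.00576), a call that ended without KO library 1 (0.0881). Of 13 tested genes of erythropoietin signalling 2 were higher, with a median of 0.30: the kinase gene Pim1 (3.46 ± 0.22, adjusted p = 3.39e-08) and Fam132b, which encodes erythroferrone, the erythroblast hormone that lowers hepcidin. Pim1 lies on chromosome 17, as the 108th nearest tested gene to H2-Ea-ps, and carries the same limit as Trim10, Rhag and Tspo2. Fam132b had 165 and 136 CPM in KO and 86.0 and 69.8 CPM in WT (0.96 ± 0.23, adjusted p = 0.0177), and its call ended in DESeq2 (0.0885) and without KO library 1 (0.117) or WT library 2 (0.115). Among 21 other membrane and surface genes 1 was higher, with a median of 0.32. That gene was Add1, the α-adducin partner of Add2 (0.67 ± 0.18, adjusted p = 0.0375), whose call ended without KO library 2 (0.233), without WT library 2 (0.226) and in DESeq2 (0.106). Of 4 tested globin genes Hba-a1 and Hbb-b1 were higher, at 0.51 ± 0.08 and 0.37 ± 0.07 (adjusted p = 0.000708 and 0.00235), the call of Hbb-b1 ending without KO library 1 (0.1003), and their near-identical copies make the counts of single globin genes uncertain.

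Markers of other cells moved in the same libraries, and their part in the erythroid differences was not tested. The 15 neutrophil markers, which include the labelled cell type's Ly6g and S100a8, took 0.576% and 0.531% of counts in KO and 3.45% and 3.98% in WT, with 14 lower and 0 higher, and none was at 0. The 15 monocyte and macrophage markers took 0.0576% and 0.0764% in KO and 0.145% and 0.160% in WT, with 5 of 13 tested lower. The 10 B cell markers took 0.590% and 0.679% in KO and 0.447% and 0.530% in WT, with 1 of 9 tested, Igj, higher. The 10 T and NK cell markers took 0.0344% and 0.0390% in KO and 0.0310% and 0.0366% in WT. Of these 9 had positive log2 fold changes, with 0 called higher, and the median of the 10 was 0.39. Nkg7 alone was lower (−1.78 ± 0.31, adjusted p = 0.00186). The 19 genes of dividing cells took 0.586% and 0.616% in KO and 0.525% and 0.503% in WT, and Mki67 alone passed as higher (0.90 ± 0.13, adjusted p = 0.000264). Gata1, Tal1, Nfe2 and Gfi1b are also expressed by cells of other lineages, among them megakaryocytes and mast cells. The 15 megakaryocyte and platelet markers summed to 0.00939% and 0.0135% of counts in KO and 0.00904% and 0.0235% in WT, with 0 calls among the 4 tested in edgeR, DESeq2 or limma-voom and 0 at an unadjusted p below 0.05 in edgeR. Those 4 had overlapping libraries and log2 fold changes of −0.04 ± 0.53 (Itga2b), −0.03 ± 0.47 (Vwf), 0.19 ± 0.59 (Gp9) and 0.37 ± 0.54 (Thbs1). Both KO libraries lay below both WT libraries for 3 of the 15 markers and above for 0, and below for 23.6% of all genes tested. The 3 markers had too few counts to be tested, so that share, taken over tested genes only, is not a like comparison for them. The 3 were Tubb1 (0 and 0 counts in KO, 6 and 5 in WT), Gp5 (0 and 0, against 1 and 8) and Ppbp (3 and 1, against 7 and 18). Pf4 was at 1 and 1 counts in KO, against 0 and 36 in WT, so that its difference rests on WT library 2. The 12 markers of progenitors, mast cells, basophils and eosinophils summed to 0.0154% and 0.0140% in KO and 0.0194% and 0.0362% in WT, and of the 2 tested Hdc was lower (−1.23 ± 0.26, adjusted p = 0.00864) and Kit was not called (74 and 46 counts in KO, against 46 and 56 in WT). Cpa3, Ms4a2, Fcer1a and Epx were at 0 in both KO libraries, and all of these but Ms4a2 were also at 0 in WT library 1. Prss34 had 0 and 10 counts in KO, against 0 and 75 in WT, and Mcpt8 0 and 1, against 0 and 32. The WT counts of Prss34 and Mcpt8 thus rest on WT library 2. The 2 melanoma markers with a row, Pmel and Mitf, had at most 2 counts in any library.

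**Figure D3:**
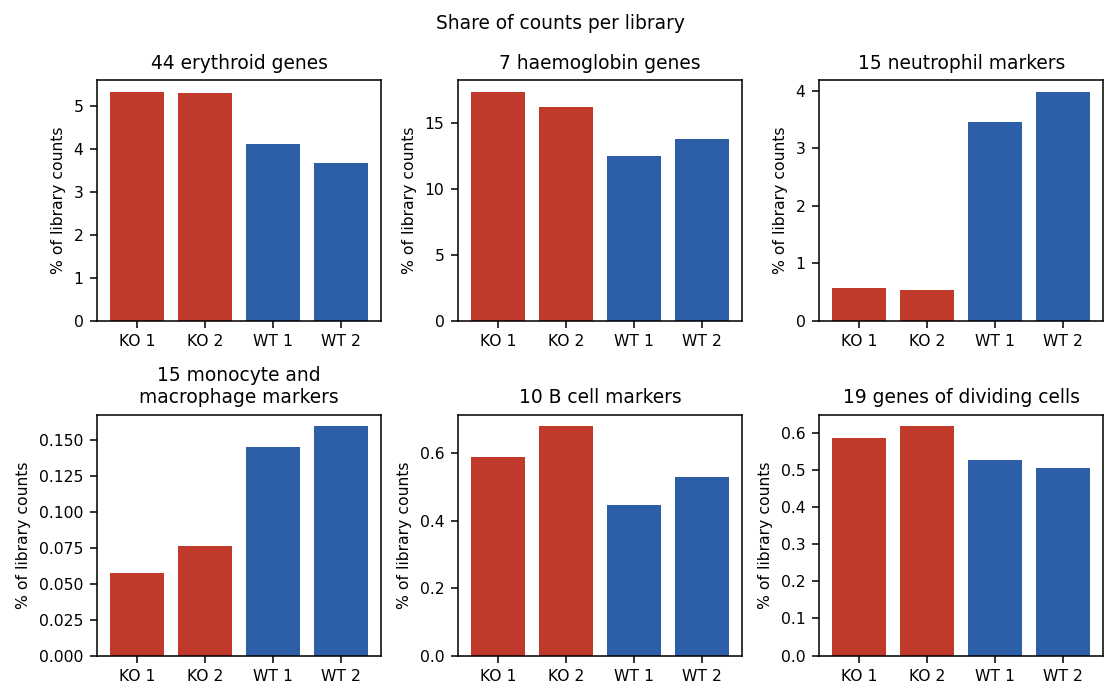
Bars give the percentage of library counts taken by the 44 erythroid genes, the haemoglobin genes and 4 marker lists, with KO libraries in red on the left and WT libraries in blue. KO bars are higher for the erythroid and haemoglobin genes, and also for the B cell markers and the genes of dividing cells. The monocyte and macrophage bars are lower in KO, and the neutrophil bars are near 0.576% and 0.531% in KO against 3.45% and 3.98% in WT.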

How the data were processed

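RNA sequencing counts of 2 KO and 2 WT libraries were used. The authors deposited whole-number read counts per gene name, with no normalization. Bowtie 0.12.2 and the builds mm8 and mm9, with no roles, are named per the submitters' processing notes. Counting program, annotation and strand setting: not given in the sources used here. Each of 18751 names was kept once from 21831 rows. Column names give the genotype but not the sample, so library numbers are only names.

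The test was run with edgeR 4.0.16 under R 4.3.3 (TMM scaling, filterByExpr with a minimum count of 10 and a total of 15, quasi-likelihood test, adjusted p below 0.05). The SE is the log2 fold change divided by the square root of F. CPM used TMM-scaled library sizes. At 0 counts, counting error alone allows up to 3 counts, which is 3.26 to 4.45 per 1000000 unscaled counts. The procedure was tested on simulated data with planted changes larger than most of those reported here, so that test does not cover changes of these sizes. Alternatives were RLE or no scaling, no filter or 1 CPM in 2 libraries, DESeq2 1.42.0, limma-voom (limma 3.58.1), haemoglobin and mitochondrial genes left out, and each library left out, when the remaining library was taken to be as variable as the rest. Scaling to haemoglobin counts was added after seeing the data. Motif letters were searched in RefSeq promoters of GRCm38.p6, a build other than the authors', and members were matched by symbol or synonym (44 of 44). All members were named, those past the threshold with CPM per library. From each list of other genes up to 4 called genes with the smallest p, or else the 2 most abundant, were named, except 1 gene that is not reported here, and Cd300ld; Mki67, Igj, Nkg7, Hdc, Pf4, H2-Ea-ps and single markers were named after their values were seen. The members and lists were chosen with earlier results of these data known.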

Additional observations from a re-analysis of the deposited data

How the results depend on the processing

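Of the 25 calls among the 44 genes, 10 held in all 11 alternatives (Gata1, Klf1, Epor, Tfrc, Rhd, Gypc, Epb4.9, Car1, Aqp1 and Abcb10), and the other 15 kept their sign but lost the threshold in at least 1. The number higher ran from 15 to 28 with 1 library left out, and the number lower from 0 to 1. Epb4.1 turned sign without KO library 1 (−0.020) and without WT library 2 (−0.030; range −0.030 to 0.18) and Bnip3l without WT library 2 (−0.12; range −0.12 to 0.18). The median log2 fold change ran from 0.53 to 0.64 over all alternatives. DESeq2 called 124 genes higher over the whole table, against 208. The other erythroid genes had 0 to 1 lower with 1 library left out; the 1 was Bach1 without KO library 1. The difference in the share of counts, KO minus WT, was 1.43 percentage points, and 2.03 with haemoglobin and mitochondrial genes taken out of the total.

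Per haemoglobin count, the number higher ran from 0 to 4 and the number lower from 0 to 1 with 1 library left out, the median from 0.15 to 0.36, and with the filter of 1 CPM 0 were lower; the cause was not tested. In fits without 1 library the filter was run anew. No paired analysis was possible because the labels give the 4 samples different numbers and the column names tie no library to a sample. At 674599 to 920839 counts per library, Nfia and Mxi1 had SEs of 0.65 and 0.56, and the smallest difference that could be called at such counts was not tested.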
